A study of Drosophila melanogaster and Drosophila yakuba and Drosophila virilis with 6 samples.

Results

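The genes described are 218 D. virilis genes that were read in imaginal discs but that the deposited gene mapping leaves without a D. melanogaster partner. They were chosen by a rule on annotation and level: every gene with a D. virilis identifier, no D. melanogaster identifier, and at least 300 tags summed over the 2 D. virilis libraries. Of 13446 D. virilis genes with a tag, 3129 had no D. melanogaster identifier, which is 23.3%, and 2911 of these lay under 300 tags. The 218 genes were 9.23% of the 2362 D. virilis genes at or above 300 tags, and the other 2144 carried a D. melanogaster partner. The sum of tags chose the genes, so their level is a description and supports nothing by itself. Just inside the limit stood FBgn0206073 with 306 tags, and FBgn0207085 and FBgn0211660 with 301 tags each. Just outside it stood FBgn0209197, FBgn0201437 and FBgn0200597, each with 299 tags.

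Messenger RNA of wandering last-instar larvae of 3 fruit flies was profiled by short tags next to NlaIII sites, separately for the eye-antennal and the wing imaginal disc. D. melanogaster was the CantonS strain, and for D. yakuba and D. virilis the labels used here name no strain. Each disc of each species is represented by 1 library, so no difference below has a replicate check, and no test was made. The labels name no treatment, and they do not say how many larvae a library pooled.

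Imaginal discs are sacs of epithelium in the fly larva that form adult structures at metamorphosis; the eye-antennal disc gives the eye, antenna and head capsule, and the wing disc gives the wing and much of the thorax. In tag profiling an enzyme, here NlaIII, cuts each complementary DNA at its recognition site, and a short tag next to a site near the 3' end is sequenced, so that a transcript is counted once whatever its length. Genes that descend from 1 ancestral gene in different species are called orthologues, and a comparison between species rests on a table that pairs them. A gene outside such a table drops out of any cross-species comparison, whatever it encodes.

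The eye-antennal library held 2065918 tags, of which 2002027 fell on a D. virilis gene, and the wing library held 3132492 tags, of which 3093694 did. A tag was read for 13156 genes in the eye-antennal library and for 10725 in the deeper wing library. The reason for this difference was not tested, and it limits what a count of 0 in the wing library can show. Paired marker genes went with the disc labels: all 9 paired markers of the eye-antennal disc were higher in its own library, with a summed level of 1879 against 72.9 CPM (tags per 1000000 of the scaled library size), and ey and gl had no tag in the wing library. Wing disc markers summed to 94.4 and 541 CPM in the same order, with 6 of 8 higher in the wing library. Markers of some other tissues also differed between the libraries. Fat body markers summed to 273 eye-antennal and 9614 wing CPM, midgut markers to 3.21 and 2219, and larval muscle markers to 572 and 2032. Brain markers lay the other way, at 322 and 103 CPM. Trachea and cuticle markers summed to 14.2 and 13.7 CPM, with 0 called. Hemocyte markers summed to 31.2 and 38.0, with 1 called in each direction. The paired salivary gland marker was at 1.83 and 0.705 CPM and was not called. In these bulk samples, fewer cells of a type and less RNA per cell cannot be told apart.

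The unpaired genes held a sizeable part of what the 2 libraries measured. They carried 503645 tags, which is 9.88% of the 5095721 tags on D. virilis genes, 9.08% of the eye-antennal and 10.4% of the wing ones. They also carried 87.1% of the 578046 tags on all unpaired genes. Their sums ran from 301 to 82619 tags with a median of 641.5, and the paired genes over the same limit had a median of 607. At least 1000 tags were read for 72 of the 218 genes (33.0%) and for 594 of the 2144 paired genes (27.7%). At least 10000 tags were read for 11 unpaired genes (5.05%) and for 70 paired genes (3.26%). The median level of the unpaired genes was 113 eye-antennal and 137 wing CPM, beside 112 and 128 for the paired genes. An unpaired gene had tags at a median of 8.5 positions, of which the richest took a median of 88.0% of its tags. For the paired genes these medians were 9 positions and 88.5%. Few genes set the total: the richest gene held 16.4% of the tags of the 218 and the richest 12 held 57.8%.

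**Figure D1:**
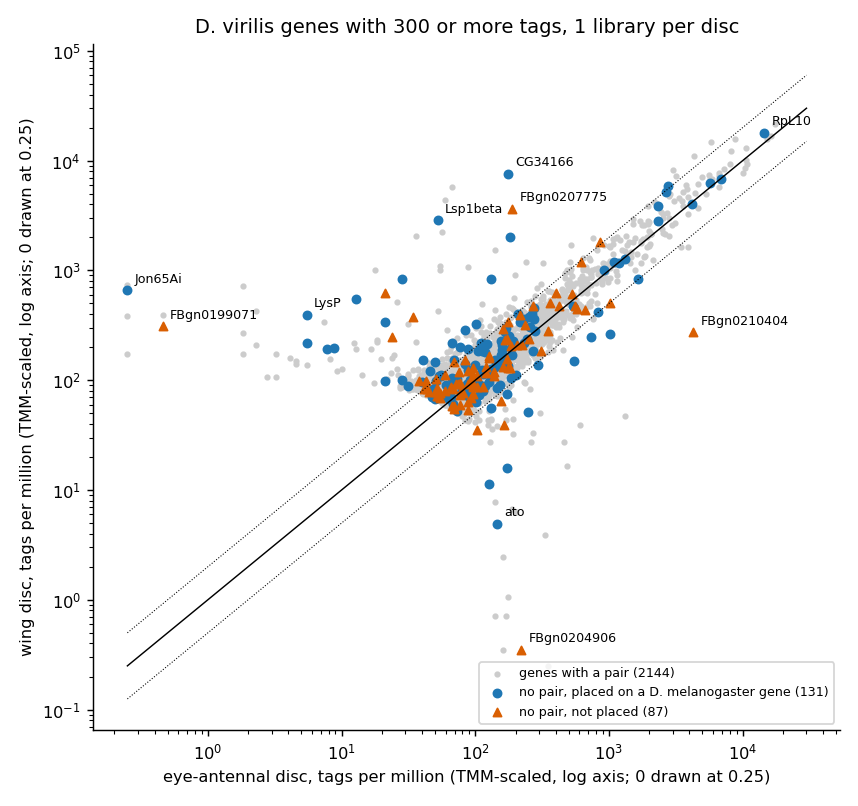
Level of each D. virilis gene with 300 or more tags in the eye-antennal (x axis) and wing (y axis) library, in CPM on log axes; grey points are the 2144 paired genes, blue circles the 131 unpaired genes with at least 50% of their tags on a D. melanogaster gene and orange triangles the 87 others. The solid line marks equal levels and the dotted lines a 2-fold difference; most unpaired genes lie between them, and the gene on Jon65Ai, with no eye-antennal tag, is drawn at 0.25.

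A second deposited mapping, of the same libraries to the D. virilis genome with positions carried to the D. melanogaster genome, was used to ask which D. melanogaster gene lies at the tags' positions. It does not use the pairing. A gene was called placed where at least 50% of its tags lay on 1 or more D. melanogaster genes. By this rule 131 of the 218 unpaired genes were placed (60.1%), beside 1426 of the 2144 paired genes (66.5%). Of these 1426 paired genes 1261, or 88.4%, had their own partner as the leading gene. This share measures how far the placement of paired genes can be read as identity, and it could not be taken for the unpaired ones. For the 131 unpaired genes the pairing table thus named no partner, while the genome comparison put at least 50% of the tags on D. melanogaster genes. These need not be orthologues. In all, 79.6% of the tags of the unpaired genes and 72.8% of those of the paired genes lay on a D. melanogaster gene.

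Placement was mostly near complete or near absent. The share of tags placed was at least 90% for 105 of the unpaired genes, under 10% for 57 and between these limits for 56. For 11 genes no tag was placed. The 131 placed genes lay on 129 different D. melanogaster genes, of which RpS13 and RpS14a were each met by a pair of D. virilis genes. They held 401409 tags, or 79.7% of the tags of the 218, with a median of 742 tags a gene. The 87 genes that were not placed held 102236 tags, with a median of 535.

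**Figure D2:**
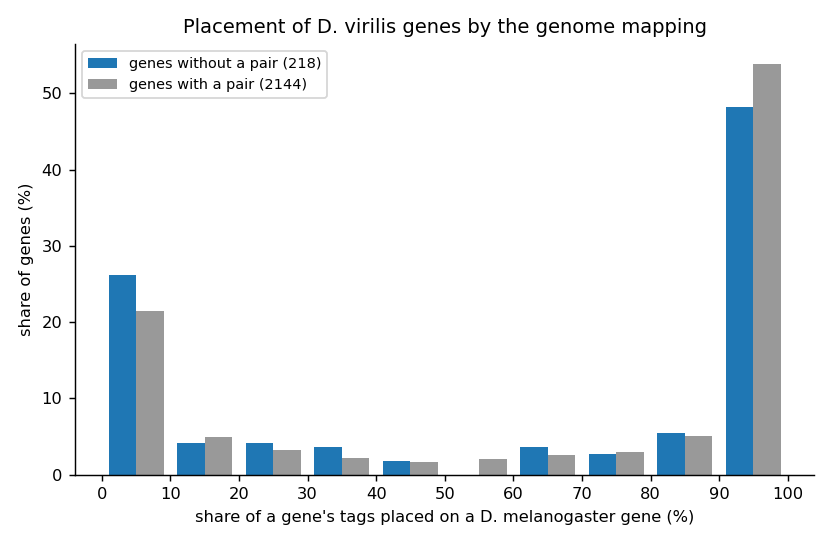
Share of genes (y axis, percent) by the share of a gene's tags that the genome mapping put on a D. melanogaster gene (x axis, percent, in steps of 10), for the 218 unpaired genes (blue) and the 2144 paired genes (grey). Both sets pile up at the ends, with 105 of the 218 unpaired genes at 90% or more and 57 under 10%.

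Ribosomal protein genes led the unpaired set by level. The 12 unpaired genes placed on a ribosomal protein gene held 217229 tags, which is 43.1% of the tags of the 218, while 51 ribosomal protein genes over the same limit were paired. FBgn0198455, placed on RpL10, a protein of the large ribosomal subunit, had 31545 eye-antennal and 51074 wing tags. These are 14458 and 17992 CPM, a wing level under 2-fold above the eye-antennal one. FBgn0208959 lay on RpS27A, which in D. melanogaster encodes ubiquitin fused to a small-subunit protein, and had 12479 and 17915 tags. FBgn0205958, on RpLP2, an acidic stalk protein, had 9164 and 11443. FBgn0205718, on RpL30, had 5814 and 14753, and FBgn0197489, on RpL27, had 5096 and 10844. FBgn0205815 and FBgn0203720 both lay on RpS14a, with 2889 and 3585 tags for the first and 415 and 648 for the other. Near-identical gene copies can share tags, and how tags with several matches were treated is not given in the sources used here, so levels of such copies are uncertain.

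Other abundant placed genes were of mixed kinds. FBgn0200737 lay on the D. melanogaster gene FBgn0034967, which has no symbol in the tables used, and had 14891 eye-antennal and 19151 wing tags. FBgn0202502 lay on His3.3B, a gene for the replacement histone H3.3, with 5074 and 7931 tags, of which 69.6% were placed, and its log2 ratio of -0.26 became 0.44 at its richest position alone. Neither differed between discs by 2-fold. CG34166 and Lsp1beta, with FBgn0198996 and FBgn0209697 on them, were also among the 12 richest placed genes and belong with the wing-biased genes.

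The disc difference of a gene was taken as the ratio of its CPM values, eye-antennal over wing or the reverse, and its exact 95% interval covers counting error only. Where the bound nearer 1 reached 2-fold, the gene was called biased to that disc. Of all 2362 D. virilis genes at or above 300 tags, 1.99% were called eye-antennal-biased, 6.27% wing-biased and 8.26% either. Among the 218 unpaired genes, 12 were eye-antennal-biased (5.50%), 30 wing-biased (13.8%) and 176 neither. Among the 2144 paired genes 35 (1.63%) and 118 (5.50%) were. Where 10 tags were enough to enter, 6.76% of 8864 genes were eye-antennal-biased, 4.65% wing-biased and 11.4% either. The median log2 ratio of eye-antennal to wing was -0.26 for the unpaired and -0.17 for the paired genes. With library totals in place of the scaled sizes, a shift of 0.25 log2 for every gene, the unpaired genes divided into 18 and 23. All 2362 genes moved alike, from 47 and 148 to 65 and 102. Of the 131 placed genes 7 were eye-antennal-biased and 23 wing-biased, and of the 87 others 5 and 7.

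**Figure D3:**
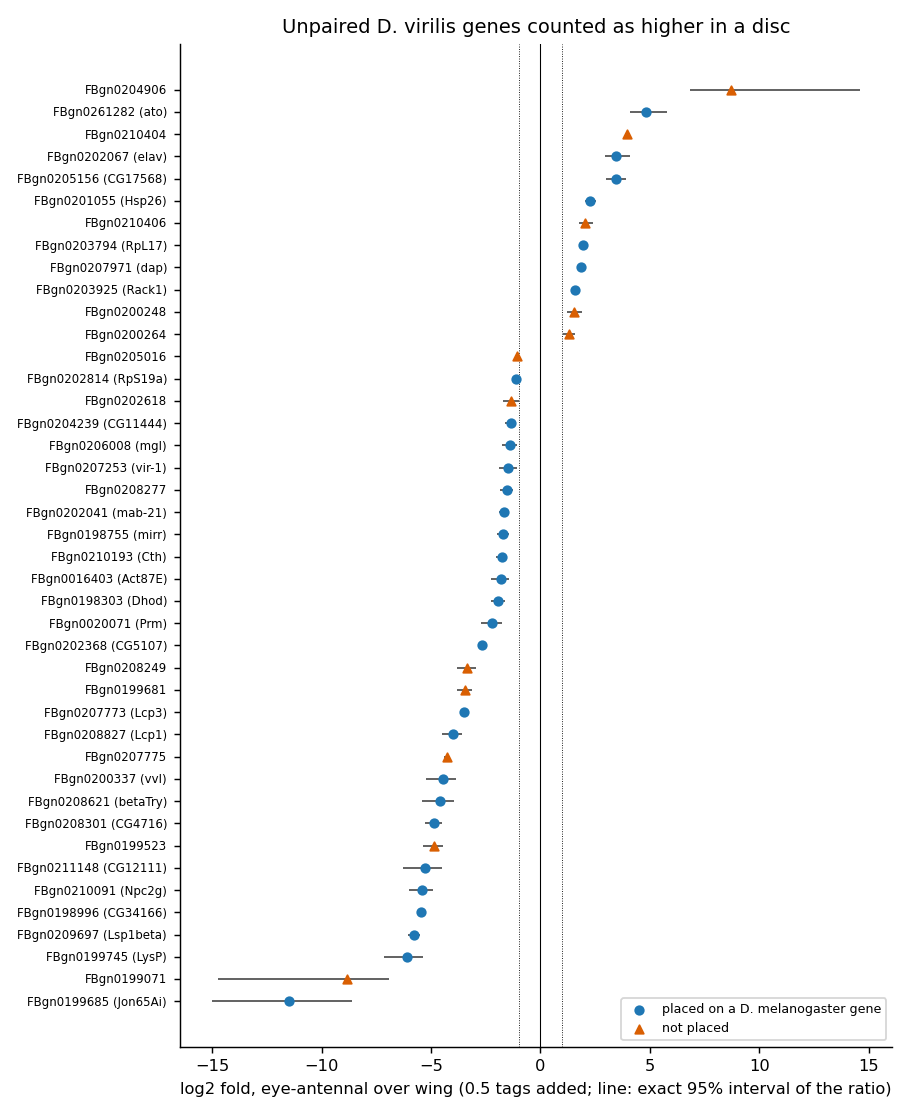
Log2 ratio of eye-antennal to wing level (x axis, with 0.5 tags added) of the 42 unpaired genes called disc-biased, 1 line each; blue circles are placed genes, orange triangles genes that were not placed, and bars exact 95% intervals for counting error. The intervals of 12 genes lie beyond the right and those of 30 beyond the left dotted line of 2-fold, and the interval of the gene on Jon65Ai, with no eye-antennal tag, is open below and drawn to -15.

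Among the eye-antennal genes were those on a proneural gene, a neuronal marker and a cell cycle inhibitor. FBgn0261282, placed on ato, had 317 eye-antennal tags and 14 wing tags. In D. melanogaster ato encodes the proneural factor that founds the first photoreceptor of each eye unit. The eye-antennal level was 29.5-fold the wing level, with an interval from 17.3 to 54.5. FBgn0202067, placed on elav, an RNA-binding protein used as the standard marker of differentiated neurons, had 277 and 32 tags, a ratio of 11.3 with an interval from 7.79 to 16.8. FBgn0207971, placed on dap, a cyclin-dependent kinase inhibitor that goes with exit from the cell cycle, had 1186 and 428 tags. Its ratio was 3.61, with an interval from 3.23 to 4.04. Brain markers were also higher in the eye-antennal library, 6 of 7, at 322 against 103 CPM, and Gad1, Hug, Ilp2, brp and nerfin-1 had no wing tag. The marker that was not called was the gene paired with elav, with 403 and 280 tags, or 185 and 98.6 CPM. Its ratio was 1.87, with an interval from 1.60 to 2.19. The part of brain tissue in the values of the unpaired genes was not tested.

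The steepest eye-antennal difference belonged to a gene with no D. melanogaster placement. FBgn0204906 had 483 eye-antennal tags and 1 wing tag, and the ratio of 628 had an interval from 112 to 24873. Its tags lay near scaffold_12963:17733172, between the genes paired with CG15432 and CG34215, at 9800 and 4028 bases. The most abundant eye-antennal gene was also not placed. FBgn0210404 had 9313 and 774 tags, a ratio of 15.7 with an interval from 14.5 to 16.9. It lay near scaffold_13047:6226315, between the gene paired with pb, a homeotic gene of the mouthparts, at 7076 bases and that paired with Ccp84Ac, a cuticle protein gene, at 8003 bases. Of its tags 5.24%, or 529, lay on lncRNA:CR33938. FBgn0210406 lay on the same scaffold near position 6159597, between the genes paired with Dfd, the homeotic gene of the maxillary segment, at 31718 bases and with bcd at 7981. It had 359 and 112 tags, a ratio of 4.17 with an interval from 3.36 to 5.20. Both genes were thus read mainly from the eye-antennal library. Both sat among genes paired with the D. melanogaster Antennapedia complex, the cluster that patterns the head and front thorax. The genes paired with pb and Ccp84Ac had only 3 and 1 tags over both libraries. A link between position and disc bias was not tested.

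The other placed eye-antennal genes lay on housekeeping or little-known genes. FBgn0205156 had 377 eye-antennal and 45 wing tags, a ratio of 10.9 with an interval from 7.99 to 15.2. Its leading gene was CG17568, while 85 of its tags lay on brat. FBgn0201055, on Hsp26, a small heat shock protein, had 542 and 145 tags and a ratio of 4.86 with an interval from 4.04 to 5.88. FBgn0203794, on RpL17, had 2232 and 751 tags and a ratio of 3.87 with an interval from 3.56 to 4.21, and 61.9% of its tags were at its richest position, where the log2 ratio was 2.60 against 1.95 over all positions. FBgn0203925, on Rack1, a ribosome-bound scaffold protein, had 1595 and 696 tags and a ratio of 2.98 with an interval from 2.73 to 3.26. Beside the genes on ato, elav and dap, the placed eye-antennal set therefore held a heat shock gene and members of the ribosome. The remaining genes, FBgn0200248 and FBgn0200264, were not placed and had 225 and 100, and 342 and 182, tags.

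On the wing side several of the steepest differences belonged to genes of secreted and digestive proteins. FBgn0199685, on Jon65Ai, a serine protease of the Jonah family, had no eye-antennal tag and 1880 wing tags. Against a floor of 3 tags the wing level was at least 482-fold higher. FBgn0208621, on betaTry, a trypsin, had 17 and 550 tags and a wing level 24.9-fold the eye-antennal one, with an interval from 15.4 to 43.0. FBgn0199745, on LysP, a lysozyme, had 12 and 1125 tags, and a wing level 72.1-fold as high with an interval from 41.1 to 140. All of these were read almost wholly from the wing library. FBgn0210091, on Npc2g, of the Niemann-Pick type C sterol-binding family, had 28 and 1570 tags, 43.1-fold with an interval from 29.7 to 65.1. Midgut markers, as given above, were at 3.21 and 2219 CPM in the 2 libraries, with Muc18B and PGRP-SC2 at 0 in the eye-antennal one. Their part in these values was not tested.

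Lsp1beta encodes a larval serum protein, which the fat body makes and stores in the blood of the larva. FBgn0209697, placed on it, had 114 eye-antennal and 8110 wing tags, a wing level 54.7-fold as high with an interval from 45.5 to 66.4. All 4 fat body markers with at least 10 tags were also higher in the wing library, and Yp1 was at 0 there. The part of fat body in this value was not tested. FBgn0020071, on Prm, a muscle paramyosin, had 46 and 277 tags, and FBgn0016403, on Act87E, an actin gene, had 62 and 286. The wing levels were 4.63-fold as high for Prm, with an interval from 3.38 to 6.47, and 3.55-fold as high for Act87E, with an interval from 2.69 to 4.75. Of 5 larval muscle markers 3 were higher in the wing library, and their part in these 2 genes' values was not tested.

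Neighbours of larval cuticle genes stood out in the wing library as well. FBgn0207775, which was not placed, had 412 eye-antennal and 10370 wing tags, a wing level 19.3-fold as high with an interval from 17.5 to 21.4, and 2.57% of its tags lay on Lcp1. Beside it, FBgn0207773, on Lcp3, had 394 and 5760 tags and was 11.2-fold as high in the wing library, with an interval from 10.1 to 12.5. FBgn0208827, on Lcp1, had 46 and 970 tags and was 16.2-fold as high, with an interval from 12.1 to 22.3. In D. melanogaster, Lcp1 and Lcp3 encode structural proteins of the larval cuticle and belong to 1 gene cluster. Among the paired genes with at least 300 tags, 3 of 5 of the cuticle list were wing-biased and 1 was eye-antennal-biased. Of the 4 paired trachea and cuticle markers only 1 had at least 10 tags, and 0 were called in either direction.

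Genes placed on transcription factor genes were in the wing set as well. FBgn0200337, on vvl, a POU-domain factor needed for wing vein formation in D. melanogaster, had 19 eye-antennal and 559 wing tags. The wing level was 22.6-fold as high, with an interval from 14.3 to 37.8. FBgn0198755, on mirr, a homeobox gene of the Iroquois complex, had 146 and 616 tags, 3.24-fold with an interval from 2.70 to 3.91. FBgn0202041, on mab-21, had 221 and 921 tags, 3.20-fold with an interval from 2.76 to 3.73. The difference was steep for vvl and milder for mirr and mab-21, both of which had over 100 tags in the eye-antennal library. Among enzyme genes, FBgn0198303, on Dhod, a step of pyrimidine synthesis, had 88 and 437 tags, and FBgn0210193, on Cth, a step from methionine to cysteine, had 184 and 820.

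Several strongly wing-biased genes lay on D. melanogaster genes of unknown role, or were not placed. FBgn0198996, on CG34166, had 383 eye-antennal and 21573 wing tags, the most of any wing-biased gene, and was 43.3-fold as high in the wing library with an interval from 39.1 to 48.0. It lay near scaffold_12963:4989231. FBgn0208301, on CG4716, had 62 and 2356 tags and was 29.2-fold as high, with an interval from 22.7 to 38.2. FBgn0211148, on CG12111, had 12 and 623 tags and was 39.9-fold as high, with an interval from 22.7 to 77.6. These are large differences in genes about which the D. melanogaster gene at their position says little. FBgn0199071 was not placed, with 0.907% of its tags on a D. melanogaster gene, and had 1 and 881 tags, a ratio of 677 with an interval from 121 to 26775. Its log2 ratio of -8.82 became -10.37 at its richest position alone. It stood 2077 bases from the gene paired with mol. FBgn0199523, also not placed, had 46 and 1771 tags and was 29.6-fold as high, with an interval from 22.1 to 40.6. In all, 7 of the 30 wing genes had fewer than 30 eye-antennal tags.

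Near the limit of the call the scaling mattered. RpS19a, a small-subunit gene on which FBgn0202814 was placed, had 6011 eye-antennal and 16811 wing tags. Its wing level was 2.15-fold as high, with an interval from 2.09 to 2.21, and it was not called with library totals. The same held for FBgn0205016, which was not placed, had 1880 and 5193 tags and carried 965 tags on crc, a transcription factor gene. Of the 12 ribosomal protein genes the one on RpL17 was eye-antennal-biased and the one on RpS19a wing-biased. Their log2 ratios ran from -1.10 to 1.95 with a median of -0.14. For the 51 paired ribosomal protein genes the median was -0.30, with 2 called in each direction.

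The genes that were not placed differed in how little was known of them from the genome comparison. Of these 87 genes, 7 had no tag on the D. melanogaster genome at all, 76 had some tags on a gene, and 5 had at least 50% of their tags on the genome but outside genes. For 23 of the 76 the gene that drew most tags was the partner of a flanking D. virilis gene. FBgn0204927 was such a gene. It had 1153 eye-antennal and 1738 wing tags, 8 of them on Fas3, a cell adhesion gene, and its nearest paired gene on one side, FBgn0204925, is paired with Fas3. The unpaired FBgn0204926, 7558 bases away, was placed on Fas3. Elsewhere the neighbour was itself unpaired. FBgn0204414 had 2232 eye-antennal and 1422 wing tags, a ratio of 2.04 with an interval from 1.91 to 2.18, and 8 of its tags lay on Thor, the translation inhibitor 4E-BP. Its neighbour FBgn0204415, 2471 bases away, was placed on Thor and had 556 and 863 tags. FBgn0209118 had 1353 and 3401 tags, of which 222 lay on Arc1.

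For most placed genes the D. melanogaster gene had no D. virilis partner in the pairing table. The pairing table is one to one: each of the 10317 D. melanogaster genes in it had exactly 1 D. virilis gene. Of the 131 placed genes, 92 lay on a D. melanogaster gene without a pair and 39 on a gene already paired with another D. virilis gene. The paired gene lay within 20 kb for 27 of the 39, farther on the same scaffold for 5 and on another scaffold for 7. In the 27 neighbouring cases the unpaired gene had more tags than its paired neighbour in 22. The neighbour was under 300 tags in 20 and under 30 in 10. The medians were 759 tags for the unpaired and 64 for the paired gene. The rule asked 300 tags of the unpaired gene and set no minimum for its neighbour, so this comparison was largely fixed in advance. Unpaired genes under 300 tags beside a richer paired gene were left out.

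Known patterning genes were among these neighbours, chosen for naming after their values were seen. On fz2, a Wnt receptor, the unpaired FBgn0199080 had 387 eye-antennal and 717 wing tags, and the paired FBgn0199079, 3587 bases away, had 6 and 18. On vvl, the unpaired gene had 19 and 559 tags, as above, and the paired FBgn0200336, at 3451 bases, had 3 and 40. On mirr, the paired FBgn0198754, at 2732 bases, had 5 and 7 tags beside 146 and 616. In each of these the table pairs the D. melanogaster gene with the D. virilis gene that carried few tags. On dap, the paired FBgn0046896, at 514 bases, had 137 and 67 tags beside 1186 and 428. On Fas3, the paired FBgn0204925, at 10452 bases, had 13 and 33 beside 549 and 1068. Opposite cases were fewer, but the tag minimum applied to the unpaired gene only, so this was largely fixed in advance. On elav, the paired FBgn0013110, at 6052 bases, had 403 and 280 tags, more than the 277 and 32 of the unpaired gene. On Hsp27, the paired FBgn0201054 had 5939 and 9454 tags beside 376 and 211 for FBgn0198737. Of the 27 unpaired genes 6 were disc-biased, and for 2 of these the paired neighbour had under 30 tags. Among all 218 unpaired genes 12 were eye-antennal-biased and 30 wing-biased, and 8.26% of all genes over the limit were biased either way.

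Genes of each Drosophila chromosome arm tend to stay on the matching arm across species, although their order is shuffled. Scaffolds with at least 100 placed positions, at least 80% of them on 1 D. melanogaster arm, were given that arm, a rule chosen after the data were seen. On these scaffolds 15 of 127 placed unpaired genes (11.8%) lay on a D. melanogaster gene of another arm, beside 27 of 1404 placed paired genes (1.92%). For 13 of the 15, the D. melanogaster gene had no paired D. virilis gene. Of the 15, 6 were on X scaffolds, 5 on 3R scaffolds and 2 on a scaffold of arm 4. They included FBgn0200737, on a scaffold of arm 4, which was placed on FBgn0034967 of 2R. Ribosomal protein genes among them were RpLP2 of 2R and RpL30 of 2L, both on X scaffolds, and RpS13 of 2L, on a 3R scaffold. The last was FBgn0210334, with 2984 tags. FBgn0198796, also unpaired and placed on RpS13, lay on a 2L scaffold and had 5924 tags. Of the 15, 0 were eye-antennal-biased and 4 wing-biased, the genes on Lsp1beta, CG5107, Cth and CG12111. The shares were 5.50% and 13.8% of the 218, and 1.99% and 6.27% of all 2362 genes over the limit. FBgn0202368, on CG5107, had 285 eye-antennal and 2375 wing tags.

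Most unpaired genes had no other gene of the set close by, though the share that did was above that of the paired genes. With neighbours joined at up to 20 kb between their richest positions, 36 of the 218 (16.5%) fell into 17 clusters, of which 15 held 2 genes and 2 held 3. Of the 2144 paired genes, 245 (11.4%) had an unpaired gene of the set within the same distance. Of the 36 clustered genes 1 was eye-antennal-biased and 6 were wing-biased. Among the 218 these shares were 5.50% and 13.8%, and among all 2362 genes over the limit 1.99% and 6.27%. The set was spread over 22 of the 30 scaffolds with a gene at or above 300 tags, and the 8 scaffolds with at least 10 such genes of the set held 172. On the 8 scaffolds with at least 100 genes over the limit, the share without a pair ran from 6.42% on scaffold_13049 to 12.7% on scaffold_12970.

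Of the clusters of 3, the one with the genes on Lcp1 and Lcp3, scaffold_12875:9380203-9389037, held the most tags. Its genes, FBgn0207775 among them, had 852 eye-antennal and 17100 wing tags together, and all 3 were wing-biased. The other spanned 6836 bases of scaffold_12822 beside mod(mdg4), a chromatin gene that D. melanogaster transcribes from both strands. Its genes had 112 and 241 tags (FBgn0201633), 223 and 313 (FBgn0201519) and 206 and 276 (FBgn0201637), and none was disc-biased. For FBgn0201633 the log2 ratio of -0.72 became -1.34 at its richest position alone. The files carry no strand, so overlapping transcripts cannot be told apart. The pairs with the most tags were the gene on RpL10 with that on eIF4B, a translation factor, at 15312 bases and with 316 and 402 tags for the latter, and the gene on RpL30 with FBgn0205717, at 2671 bases and with 344 and 538 tags. Neither pair held a disc-biased gene. The genes near Jon65A, 7947 bases apart, were both wing-biased: FBgn0199685, described above, and FBgn0199681, with 75 and 1061 tags and a wing level 10.9-fold as high, with an interval from 8.6 to 13.9. FBgn0198737, on Hsp27, and FBgn0201055, on Hsp26, stood 8697 bases apart, and of these the gene on Hsp26 was called eye-antennal-biased.

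**Figure D4:**
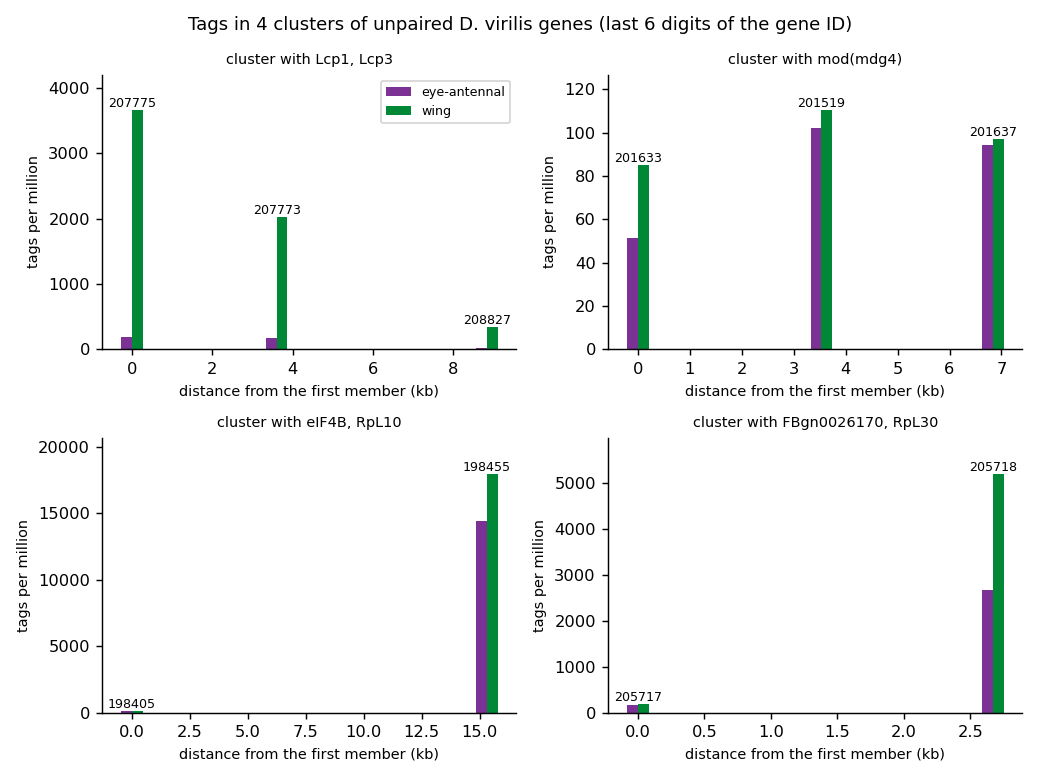
Eye-antennal (purple) and wing (green) levels, in CPM on linear axes that differ between panels, of the genes in 4 clusters, placed along the x axis by their distance in kb from the first gene. The 3 genes of the cluster with Lcp1 and Lcp3 are higher in the wing library, the 3 genes beside mod(mdg4) differ little, and the genes on RpL10 and RpL30 stand far above their neighbours.

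For placed genes the D. melanogaster gene could be read in the libraries of the other species. The values are those of the gene at the placement, which need not be the orthologue. In D. melanogaster, 7.97% of genes with at least 10 tags were called eye-antennal-biased and 6.8% wing-biased, and in D. yakuba 3.6% and 3.3%. Among 121 placed genes whose D. melanogaster gene had at least 10 tags, the log2 ratios of the species had a Pearson r of 0.466 and a Spearman rho of 0.239. With D. yakuba these were 0.435 and 0.0515 over 86 genes. All values of a species share its pair of libraries, so the correlations describe these libraries only.

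**Figure D5:**
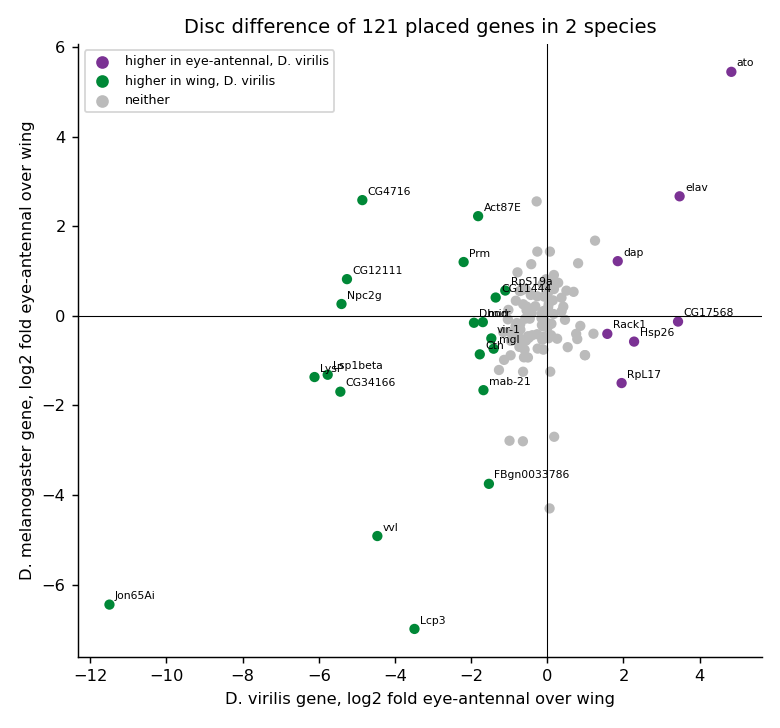
Log2 ratio of eye-antennal to wing level of 121 placed unpaired genes in D. virilis (x axis) against that of the D. melanogaster gene at their position in D. melanogaster (y axis); purple points were called eye-antennal-biased and green points wing-biased in D. virilis. Genes on ato, elav and dap lie on the eye-antennal side in both, those on Jon65Ai, Lcp3 and vvl on the wing side in both, and those on CG4716, Act87E and RpL17 on opposite sides.

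The unpaired genes on ato, elav and vvl kept their side across species. On ato, D. melanogaster had 85 eye-antennal tags and 1 wing tag, and D. yakuba 2179 and 33. On elav the values were 236 and 28 in D. melanogaster, and 532 and 56 in D. yakuba. On vvl they were 5 and 127, and 24 and 59. Each of these ratios was past 2-fold by its interval. On dap the D. melanogaster ratio was 2.34 with an interval from 1.90 to 2.90, which was not called. The D. yakuba ratio was 2.60, with an interval from 2.16 to 3.14. Of the 7 placed eye-antennal-biased D. virilis genes, 2 had the same call in D. melanogaster and 1 the opposite one, and in D. yakuba 3 and 0. The sign of the log2 ratio was the same for 3 of the 7 in D. melanogaster and for 4 in D. yakuba.

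Of 20 wing-biased D. virilis genes with enough D. melanogaster tags, 7 were wing-biased in D. melanogaster too, 2 were eye-antennal-biased and 11 neither. In D. yakuba 3 of 13 were wing-biased and 0 eye-antennal-biased. The gene on Lsp1beta shows the spread. D. melanogaster had 3126 eye-antennal and 5967 wing tags, a wing level 2.49-fold as high, and D. yakuba 690 and 4353, 16.9-fold as high, beside 54.7-fold in D. virilis. On CG34166, D. melanogaster had 3377 and 8380 tags, 3.23-fold. On Jon65Ai it had 0 and 33 tags, and on Lcp3 1 and 146. On mirr it had 277 and 234, a wing level 1.10-fold as high with an interval from 0.921 to 1.32. The wing side thus held for Lsp1beta, CG34166, Jon65Ai and Lcp3 in D. melanogaster, at sizes that differed from D. virilis, and it was not seen for mirr.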

How the data were processed

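Messenger RNA tags were read from 1 eye-antennal and 1 wing disc library per species. The deposited files hold whole-number tag counts per position and gene, which the authors made with Bowtie 0.12.1, per the submitters' processing notes. The sources used here do not give its settings or how it counted a tag that matched several places, and the files carry no strand. For D. virilis, one file per library counts tags per gene and names its D. melanogaster partner, and one gives positions on the genome build droVir3, per the file names, with the D. melanogaster gene there. Of 2231 positions of the 218 genes, 2228 were found in both at the same coordinate. Tags without a gene (3.09% of eye-antennal, 1.24% of wing) were left out.

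Counts were summed per gene. Library sizes were scaled by TMM in edgeR (factors 1.09 and 0.918), and ratios got exact conditional binomial 95% intervals, which cover counting error only, since amplified tags are not independent molecules. With 1 library a group no edgeR test was run. The interval code was tested on simulated data. Folds against 0 used 3 tags. Of the 131 placed genes, 111 matched a symbol in the D. melanogaster annotation. Named genes were the 12 with most tags, the 10 with the largest lower bound in each direction, the genes of the 4 clusters with most members, the 12 placed and 6 unplaced genes with most tags, and the 3 nearest the limit on each side; others were chosen after their values were seen. The genes, lists and limits were chosen with earlier results of these data known. Alternatives tried were other scalings, ratio limits, tag minimums, cluster distances and placement rules.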

Additional observations from a re-analysis of the deposited data

Results flagged for a closer look

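Of the placed genes called biased to 1 disc in D. virilis, 3 lay on a gene called biased to the other disc in D. melanogaster. With 1 library per disc and species the difference between species was not tested.

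The gene on RpL17 had 2232 eye-antennal and 751 wing tags in D. virilis. D. melanogaster RpL17 had 1232 and 2675, a wing level 2.83-fold the eye-antennal one with an interval from 2.64 to 3.03. The log2 ratios of eye-antennal to wing, 1.95 and -1.50, differed by 3.45. D. yakuba stood between them, at -0.41.

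The gene on CG4716 had 62 and 2356 tags in D. virilis and 66 and 8 in D. melanogaster, and its log2 ratio was lower in D. virilis by a difference of -7.44. The gene on Act87E, an actin, had 62 and 286 tags in D. virilis and 88 and 14 in D. melanogaster, a difference of -4.04. Actin genes are near-identical copies of each other over long stretches, so counts of a single actin gene are uncertain.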

How the results depend on the processing

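No paired analysis was possible because each disc of each species has 1 library and the labels give no replicate numbers; for the same reason no library could be left out. With at least 100 or 1000 tags the set held 461 or 72 genes. The 12 eye-antennal genes became 6 with a 4-fold bound and 4 with at least 1000 tags, and the 30 wing genes became 17 with a 4-fold bound, 47 with at least 100 tags and 16 with at least 1000. Clustered genes went from 36 to 55 at 50 kb and to 16 where no other gene could stand between, and placed genes from 131 to 207 where 1 tag was enough. The 195 genes of any kind called disc-biased became 1011 at a minimum of 10 tags and 1119 with none. No named gene called disc-biased changed sign under another scaling or at its richest position alone, while 7 named genes called in neither disc did, at ratios under 1.5-fold: 4 with library totals, FBgn0200737 with median-of-ratios factors (0.02 to -0.01 on the log2 scale) and 2 at the richest position. With library totals, 22 of the 43 named genes moved beyond their counting interval, as the shift is common to all genes. The wing genes fell from 30 to 23, and those among all genes over the limit from 148 to 102. Counts under the median-of-ratios, richest-position and neighbour-distance alternatives, some chosen after seeing the data, stayed within 1.5 times. Depth limits genes near 300 tags.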

Other observations

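Of the 87 genes that were not placed, 5 had at least 50% of their tags on the D. melanogaster genome but outside its annotated genes, and none of them was called disc-biased. FBgn0204400 had 517 eye-antennal and 907 wing tags, of which 1384 lay on the D. melanogaster genome and 0 on a gene. FBgn0201519, in the cluster beside mod(mdg4), had all 536 of its tags on the genome and 0 on a gene. FBgn0206933 had 146 and 166 tags, with 292 on the genome and 1 on a gene. The others were FBgn0207273, with 305 tags on the genome and 7 of them on a gene, and FBgn0202628, with 279 and 1.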
